A study of Mus musculus with 16 samples.

Results

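Ephrins, semaphorins, slits and netrins are the classical guidance ligands, and their expression was followed here in the early mouse endoderm. Genes were taken by symbol: EPHA, EPHB, EFNA or EFNB with a number, SEMA with a digit, every PLXN gene, SLIT1 to SLIT3, ROBO1 to ROBO4, NTN1, NTN3, NTN4, NRP1 and NRP2. Of 62 such symbols in the count tables, 60 had 10 or more counts in 2 or more of the 16 libraries, out of 26761 symbols in all. The 60 comprised 8 ephrin ligands, 13 Eph receptors, 20 semaphorins, 8 plexins, 2 neuropilins, 3 slits, 4 robo receptors and 2 netrins. The other two symbols were close to the detection limit: Epha6 reached at most 8 counts in a library and was at 0 in 10 libraries, and Plxnb3 reached at most 10 counts.

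The libraries held polyadenylated RNA from 8 groups of mouse embryonic tissue, 2 libraries in each. At E7.5 they were the extraembryonic (exVE) and the embryonic (emVE) visceral endoderm, the outer epithelium of the conceptus. The labels name both of these E7.5 groups as cells. At E8.75, when embryos have 13 somites, they were gut tubes as bulk tissue, as dissociated cells, and cut into 4 pieces, named here from back to front as posterior, midgut-posterior, anterior-midgut and anterior section. Heads and extraembryonic membranes had been removed, and gut tubes were freed with pancreatin and trypsin on ice and dissected with needles. The dissociated cells had a further 20 min at 37 °C in Accutase and trypsin. The labels name Afp-GFPTG/+ embryos, which carry a visceral endoderm reporter, for the gut tubes that were made into single cells. They give no genotype for the other groups, no strain, and no number of embryos per library.

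Ephrins are membrane-bound ligands whose contact with Eph receptor tyrosine kinases makes cells repel or sort from each other; A-class ephrins are held by a lipid anchor and B-class ephrins span the membrane. Class 3 semaphorins are secreted and act through neuropilins and plexins, whereas classes 4 to 7 are mostly bound to the membrane. Slits are secreted ligands of robo receptors, and netrins act through Dcc, neogenin and the Unc5 receptors. Beyond the axons for which they were named, these systems are known to act in epithelial boundaries, in cell migration and in the patterning of blood vessels.

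Levels are given as CPM, the usual count scaled to a common library total, after TMM scaling for differences in RNA composition. Library totals ran from 57061536 to 84509973 counts. Differences are log2 fold changes with standard errors (SE) from edgeR's quasi-likelihood test on all 17313 genes with enough counts. The threshold for a call was 0.05 on two-sided p-values adjusted by Benjamini-Hochberg across this whole set, which held all 60 guidance genes. The TMM factors of the exVE libraries were 0.787 and 0.775, against 0.997 to 1.1 elsewhere. The 2 libraries of dissociated cells stood furthest apart, with a chi-square per gene of 318 against 27.4 to 94.3 in the other groups. The labels do not say whether the libraries of a group come from separate embryos, so p-values measure only the spread between these samples. A lower level in bulk RNA can mean fewer cells of a type or less RNA per cell, which cannot be told apart.

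Markers of the labelled tissues were detected. The summed level of 7 visceral endoderm genes, Afp and Ttr among them, ran from 30734 to 32626 CPM in exVE and from 12421 to 12988 CPM in emVE. None of the 7 was called between exVE and emVE, where 43.9% of all genes tested were. The 6 hindgut genes, Cdx2 among them, summed to 3.02 to 3.97 CPM in the anterior section and 771 to 924 CPM in the posterior one. Other cell types were present as well: 8 endothelial genes summed to 409 to 418 CPM in bulk gut tubes, and to 424 to 823 CPM across the sections.

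Most guidance genes had their lowest level in exVE. Of the 60, 41 had their lowest group mean there, against 36.6% of all genes tested, and 38 reached a mean of 1 CPM in exVE, against 53 in emVE and 58 in bulk gut tubes. The share of all genes that reached 1 CPM was not counted. Their highest means lay in the anterior section for 14 genes, the anterior-midgut section for 11 and the posterior section for 11. Among all genes tested, 12.2%, 7.57% and 10.7% had their highest mean in these sections. For 7 guidance genes it lay in exVE and for 5 in emVE, against 29.8% and 13.1% of all genes tested. The heatmap of all 60 genes shows these patterns library by library.

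**Figure D1:**
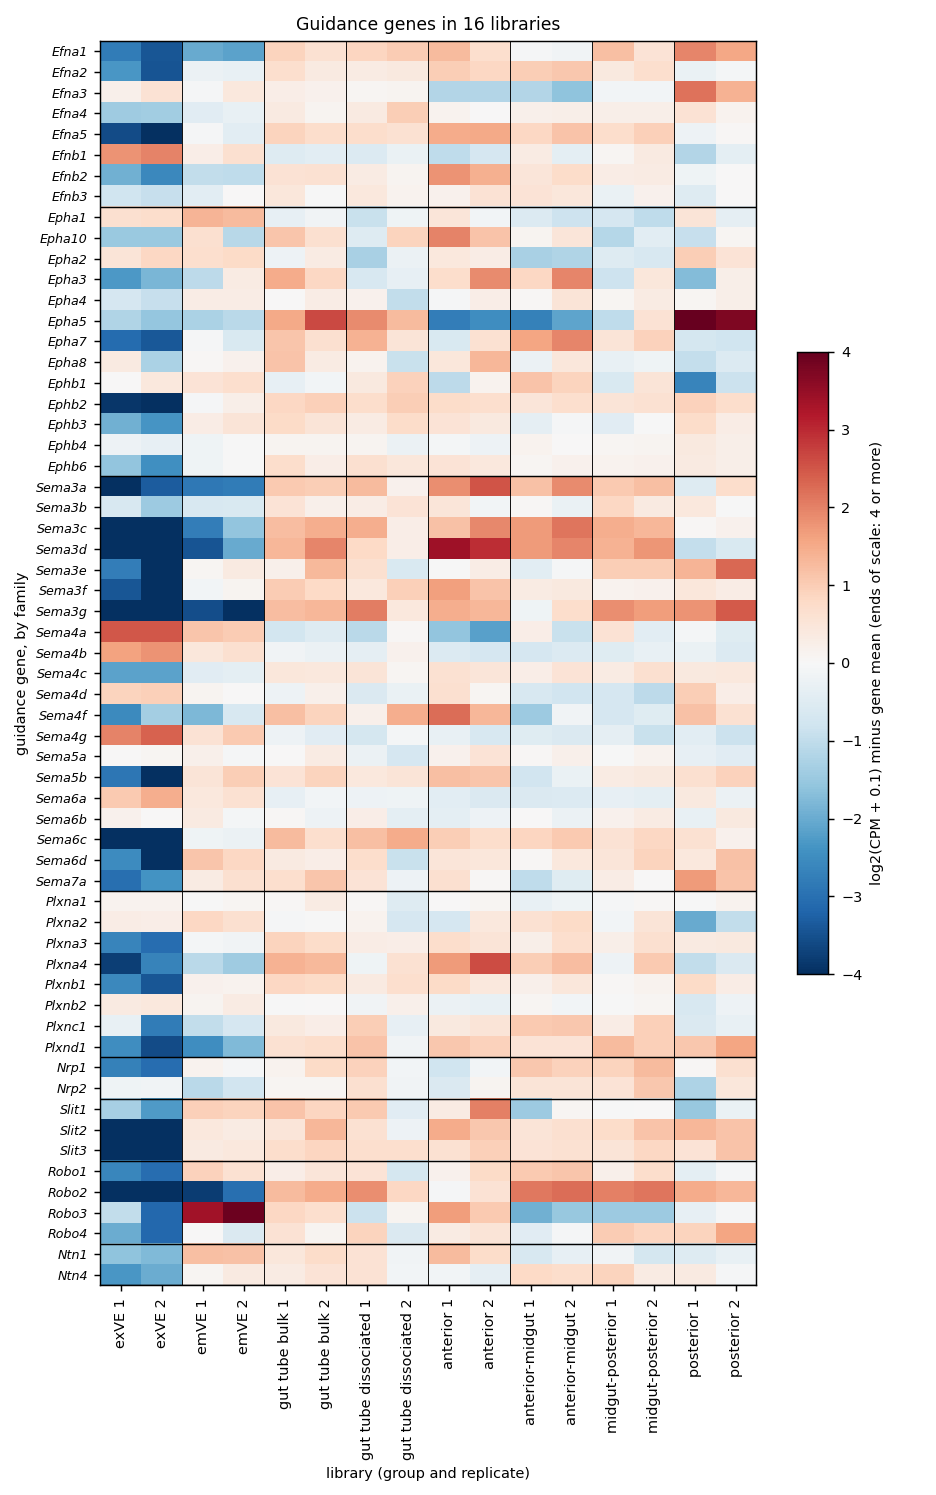
Heatmap of the 60 guidance genes (rows, grouped by family) in 16 libraries (columns, by group and replicate). Colour is log2(CPM + 0.1) minus the gene's mean over libraries; blue in the first 2 columns marks genes low in exVE, where 41 of the 60 had their lowest mean, and red marks Efnb1 and 4 class 4 semaphorins that were high there.

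The contrast between the parts of the visceral endoderm was the largest set of calls. In exVE relative to emVE, 35 of the 60 guidance genes fell and 6 rose. Among all genes tested 43.9% were called, 23.8% lower and 20.1% higher, and for 75.7% the libraries of the groups did not overlap. The median log2 fold change was -1.48 over the guidance genes and 0.00 over all genes tested. Here and below, only libraries of the compared groups were left out. Of the 41 calls, 31 held with each library left out in turn; the count was 32 without exVE replicate 2 and 36 to 38 without each other library.

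All 3 slits, all 4 robo receptors and both netrins fell in exVE. Slit3 stood at 0.928 and 0.584 CPM in the exVE libraries and 28.1 and 29.8 CPM in the emVE libraries, so the groups lay far apart. Its log2 fold change was -5.26 (SE 0.27, adjusted p = 4.90e-07). Slit2 stood at 1.13 and 0.233 CPM against 39.7 and 37.5 CPM, a change of -5.83 (SE 0.54). Slit1 was the lowest of the slits in emVE, at 6.63 and 6.33 CPM against 1.29 and 0.622 CPM, and its call was lost without exVE replicate 2 (adjusted p = 0.0894). The receptor Robo1 had 6.90 and 5.02 CPM in exVE and 80.7 and 64.8 CPM in emVE (log2 fold change -3.61, SE 0.39, adjusted p = 2.48e-05). Robo3, a divergent receptor known for its role at the midline of the nervous system, had 0.343 and 0.00 CPM against 8.93 and 13.3 CPM, and emVE was the group with its highest level. Robo4, the endothelial member, was low on both sides, at 0.380 against 2.09 CPM on average. Ntn1, the secreted netrin of the neural floor plate, stood at 10.8 and 9.76 CPM in exVE and 77.3 and 76.0 CPM in emVE, a change of -2.90 (SE 0.28). Ntn4 went the same way at a low level, from 1.44 CPM in emVE to 0.197 CPM in exVE.

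Of the 8 ephrin ligands, 6 fell in exVE, Efnb1 rose and Efna3 was not called. Efnb1, a B-class ephrin encoded on the X chromosome, had 286 and 328 CPM in exVE and 101 and 131 CPM in emVE. The groups did not overlap, and the log2 fold change was 1.40 (SE 0.27, adjusted p = 0.00150). Divided by exon length in the GENCODE M21 annotation, its mean was 88.9 CPM per kb in exVE, the highest of all guidance genes there, ahead of the plexin Plxnb2 at 37.4 and the receptor Ephb4 at 26.1 CPM per kb. Efna5, an A-class ligand, showed the reverse, with 1.23 and 0.311 CPM in exVE and 15.5 and 11.8 CPM in emVE (log2 fold change -4.15, SE 0.42). Efna2 fell from 21.0 to 3.56 CPM on average, and Efnb2 from 46.2 to 19.8 CPM. Efna3 was level, at 7.52 and 9.73 against 6.29 and 8.71 CPM. The falls of Efna1 and Efnb3 were small (log2 fold changes -1.01 and -0.67) and were lost without exVE replicate 2 (adjusted p = 0.115 for Efna1) or emVE replicate 2 (adjusted p = 0.275 for Efnb3), among others.

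Among 13 Eph receptors, 7 fell and none rose. Ephb2, a receptor for B-class ephrins, stood at 4.01 and 1.71 CPM in exVE and 58.5 and 71.7 CPM in emVE, with a log2 fold change of -4.51 (SE 0.31, adjusted p = 1.47e-06). Ephb3, its close relative, fell from 48.3 to 8.31 CPM. Ephb4, by contrast, stood at 127 and 115 CPM in exVE and 128 and 142 CPM in emVE and was not called, nor was Epha2, at 41.9 and 52.5 against 46.4 and 49.8 CPM. Ephb1 was not called either, at 12.7 and 16.8 against 18.3 and 20.2 CPM, and in exVE it stood above Ephb2 and Ephb3. The high level of Efnb1 in exVE was thus measured beside low Ephb2 and Ephb3, and beside Ephb1 and Ephb4 that were not called. Epha7 fell from 14.9 to 1.85 CPM and Epha4 from 73.5 to 34.5 CPM, the latter call being lost without exVE replicate 2 (adjusted p = 0.0837). Epha10 had 0 counts in both exVE libraries and was at least 5.97-fold lower there, taking 3 counts in its libraries together as the floor, and Epha3 had a mean of 0.327 CPM in emVE. Both of these calls were lost without exVE replicate 1, without exVE replicate 2, and without an emVE library (replicate 1 for Epha10, replicate 2 for Epha3).

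Semaphorin calls went in both directions, and differences between the classes were not tested. Of 7 class 3 genes, 4 fell in exVE (Sema3c, Sema3d, Sema3e and Sema3f) and none rose. Of 6 class 4 genes, 4 rose (Sema4a, Sema4b, Sema4d and Sema4g) and 1, Sema4c, fell. Sema3f, a repellent that signals through Nrp2, had 3.71 and 1.91 CPM in exVE and 37.2 and 43.9 CPM in emVE, a change of -3.85 (SE 0.30, adjusted p = 3.07e-06). Sema4g stood at 94.1 and 121 CPM in exVE against 35.3 and 48.6 CPM in emVE (log2 fold change 1.36, SE 0.27, adjusted p = 0.00162). Sema4b, at 67.7 and 76.3 against 29.9 and 34.5 CPM, rose by 1.16 (SE 0.18), with no overlap between the groups. Sema4a rose from 13.0 to 34.7 CPM and Sema4d, a ligand of Plxnb1, from 28.0 to 50.7 CPM; both calls were lost without emVE replicate 2, among others (adjusted p = 0.112 and 0.0833). In the other classes Sema6a, a transmembrane semaphorin, rose from 83.9 to 141 CPM, a call lost without exVE replicate 2 or emVE replicate 1. Sema5b, Sema6c, Sema6d and Sema7a fell. The largest of these changes with no overlap was Sema6c, at 0.202 and 0.233 against 9.05 and 8.57 CPM (log2 fold change -5.33, SE 0.31, adjusted p = 5.33e-07).

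Among the semaphorin receptors, 3 of 8 plexins and 1 of 2 neuropilins fell. Plxnb1 stood at 19.7 and 11.0 CPM in exVE and 133 and 129 CPM in emVE (log2 fold change -3.10, SE 0.26), Plxna3 fell from 22.9 to 3.40 CPM, and Plxna4 fell from 2.37 to 0.570 CPM, the last call being lost without exVE replicate 1 (adjusted p = 0.0699). Plxnb2 (282 and 295 against 235 and 275 CPM) and Plxna1 (154 and 152 against 136 and 145 CPM) were not called. The neuropilin Nrp1, a co-receptor for class 3 semaphorins and VEGF, fell from 55.4 and 49.0 to 7.76 and 6.03 CPM (log2 fold change -2.92, SE 0.38, adjusted p = 9.34e-05). Nrp2 was higher in both exVE libraries, at 111 and 113 against 58.4 and 73.0 CPM, but was not called.

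**Figure D2:**
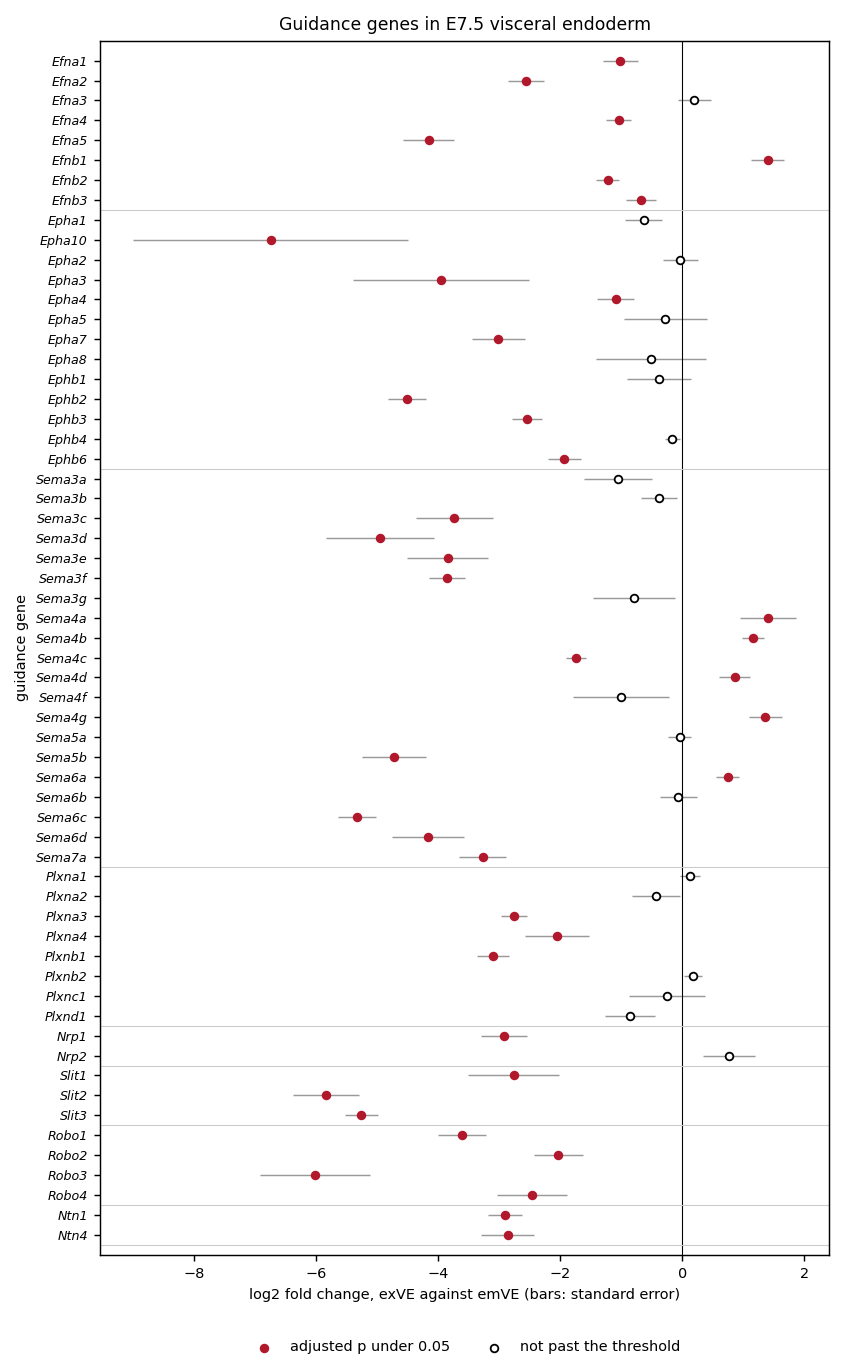
Log2 fold change in exVE relative to emVE (x axis; bars are the standard error) for each guidance gene (y axis, by family). Filled points passed an adjusted p of 0.05: 35 lie to the left, lower in exVE, and 6 to the right, Efnb1, Sema6a and 4 class 4 semaphorins. The position of Epha10, at 0 counts in exVE, depends on the prior count.

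Partner genes of these ligands and receptors were counted in the same fit. Of 17 netrin receptors and related guidance genes, 11 fell in exVE and 2 rose, with a median log2 fold change of -1.68. Of 29 tested genes of guidance signal transduction, 14 fell and 2 rose, with a median of -0.48. In these lists 76.5% and 55.2% of the tested genes were called, against 43.9% of all genes tested. Rgma, a ligand of neogenin, fell from 72.7 ± 13.4 to 5.23 ± 3.27 CPM (mean ± SD, n = 2). Crmp1 and Dpysl5, cytoplasmic mediators of semaphorin signalling, fell from 24.1 ± 2.34 to 0.557 ± 0.182 and from 89.7 ± 6.51 to 5.57 ± 2.05 CPM. The netrin receptor Dcc was near the floor, with 0.00 CPM in both exVE libraries and a mean of 0.0761 ± 0.108 CPM in emVE. Neo1, neogenin, was at 146 ± 6.62 and 152 ± 4.31 CPM, while Unc5b rose from 94.5 ± 5.82 to 151 ± 1.89 CPM (log2 fold change 0.68, SE 0.12, adjusted p = 0.000719).

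Markers of other cell types differed between the 2 tissues. The summed level of 6 notochord genes ran from 13.9 to 22.8 CPM in exVE and 727 to 733 CPM in emVE, and all 6 fell. For 7 somite and paraxial mesoderm genes the sums were 1.28 to 3.49 and 72.9 to 78.5 CPM, with 6 lower and Meox1 and Mesp2 at 0 in exVE. For 7 neural tube genes they were 1.19 to 2.38 and 18.3 to 25.6 CPM, with 4 lower, Neurog2 at 0 in exVE and Olig2 at 0 in emVE. Endothelial genes, 5 of 8 higher and Emcn at 0 on both sides, summed to 29.6 to 72.3 and 12.6 to 25.3 CPM. The mitochondrial share of counts was 5.75% to 6.65% in exVE and 4.77% to 5.48% in emVE. The part of these differences in the guidance results was not tested.

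Between emVE at E7.5 and the bulk gut tube at E8.75, 21 of the 60 guidance genes rose and 7 fell, while 38.6% of all genes tested were called, 21.7% higher and 16.9% lower. For 74.0% of all genes the libraries of these groups did not overlap. The median log2 fold change was 0.60 over the guidance genes and 0.08 over all genes tested. This comparison and the one of exVE share the emVE libraries. The labels name emVE as cells and these gut tubes as bulk tissue, so stage and preparation cannot be told apart here. Of the 28 calls, 14 held with each library left out in turn, and the count was 16 without bulk replicate 1, 17 without emVE replicate 2, 20 without emVE replicate 1 and 22 without bulk replicate 2.

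Secreted class 3 semaphorins were prominent among the genes that rose, with 6 of 7 higher in the gut tube. Sema3g, known from vessel walls, had 12.9 and 13.8 CPM in bulk gut tubes and 0.377 and 0.244 CPM in emVE (log2 fold change 5.43, SE 0.56, adjusted p = 4.04e-05). Sema3d stood at 11.1 and 17.0 against 0.309 and 1.00 CPM, a change of 4.40 (SE 0.50), and Sema3a at 18.1 and 17.5 against 1.13 and 1.16 CPM, a change of 3.96 (SE 0.53). Sema3c followed with 16.5 and 19.0 against 0.926 and 2.25 CPM. None of these 4 genes overlapped between the groups. Sema3e, a ligand that binds Plxnd1 directly, was the class 3 gene not called, at 8.28 and 17.6 against 7.47 and 9.17 CPM. The calls of Sema3b and Sema3f were lost without bulk replicate 1 (adjusted p = 0.124) and emVE replicate 1 (adjusted p = 0.108) respectively, among others.

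Class 4 semaphorins were mixed. Sema4a, Sema4b and Sema4g fell in the gut tube, so that exVE, emVE and gut tube stood in descending order of their means: Sema4g had means of 108, 41.9 and 18.8 CPM, Sema4b 72.0, 32.2 and 19.3 CPM, and Sema4a 34.7, 13.0 and 3.98 CPM. Each of these calls against emVE was lost with a library left out (adjusted p = 0.0561 for Sema4g and 0.0615 for Sema4b without emVE replicate 2, and 0.0900 for Sema4a without bulk replicate 1). Sema4c, which fell in exVE, rose by 0.86 from emVE to the gut tube, from 50.0 to 91.0 CPM (SE 0.15, adjusted p = 0.00110). Sema4f rose from 0.392 to 2.09 CPM, a call lost without bulk replicate 1 or emVE replicate 1. Sema6a fell from 83.9 to 50.8 CPM, a call lost without bulk replicate 1 or emVE replicate 2, and Sema6c rose from 8.81 to 20.6 CPM. The plot of class 3 and class 4 semaphorins sets the libraries of the 3 tissues side by side.

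**Figure D3:**
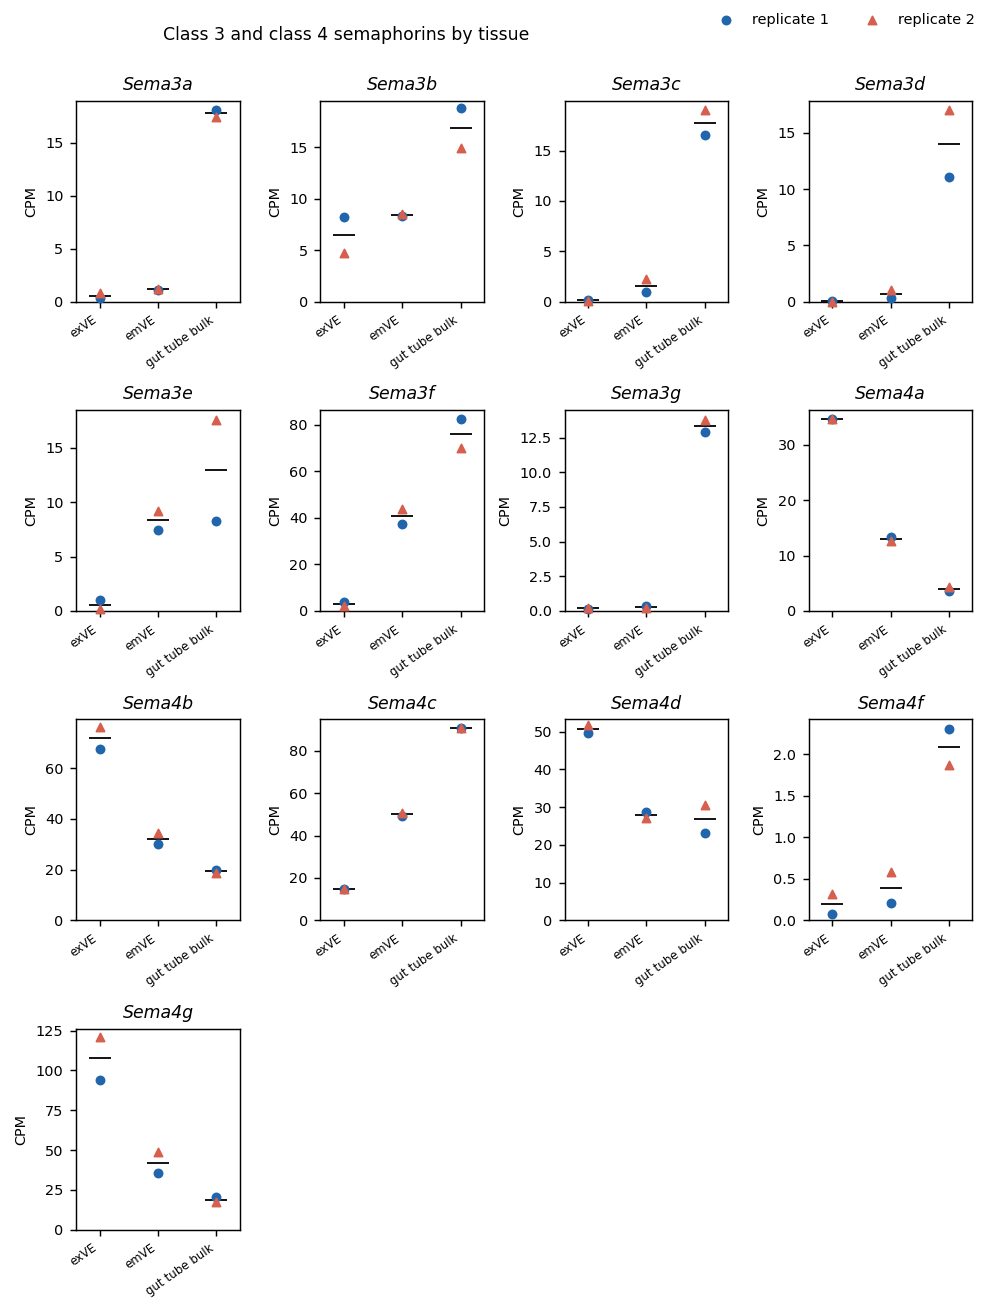
CPM (y axis, from 0) of the 7 class 3 and 6 class 4 semaphorins in exVE, emVE and bulk gut tubes (x axis). Circles and triangles are the 2 libraries and dashes their mean. Sema3a, Sema3c, Sema3d and Sema3g are high in the gut tube alone of these 3 tissues, while Sema4a, Sema4b and Sema4g descend from exVE to the gut tube.

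Robo2, a slit receptor, showed the smallest adjusted p of the guidance genes in this comparison. It had 65.7 and 76.5 CPM in bulk gut tubes and 1.89 and 3.29 CPM in emVE (log2 fold change 4.78, SE 0.37, adjusted p = 9.14e-06). Robo3 moved in the other direction, from 11.1 to 1.38 CPM, a call lost without bulk replicate 2 (adjusted p = 0.0590), among others, while Robo1 was not called, at 50.9 and 58.6 against 80.7 and 64.8 CPM. The slits and netrins were not called either: Slit2 had 41.5 and 74.6 CPM in bulk gut tubes, Slit3 36.0 and 40.5 CPM and Ntn1 45.3 and 55.4 CPM. Among ephrins, Efna1, a ligand known from epithelia and vessels, rose from 6.51 and 5.97 to 49.4 and 41.4 CPM (log2 fold change 2.86, SE 0.28, adjusted p = 3.35e-05). Efnb2, the arterial ephrin, rose from 47.1 and 45.4 to 137 and 140 CPM (1.59, SE 0.19), while its receptor Ephb4 stood at 158 and 155 against 128 and 142 CPM and was not called. Efnb1 fell from 116 to 59.8 CPM, a call lost without emVE replicate 2 (adjusted p = 0.114), among others. The rises of Efna2, Efna4 and Efna5 had log2 fold changes of 0.63 to 1.02, and each was lost with a library left out (adjusted p = 0.195 and 0.153 for Efna2 and Efna4 without bulk replicate 1, and 0.196 for Efna5 without emVE replicate 2).

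Of the Eph receptors, Epha5 rose from 0.309 and 0.365 to 2.68 and 6.03 CPM (log2 fold change 3.68, SE 0.64, adjusted p = 0.00102) and Epha1, an epithelial receptor, fell from 84.3 and 80.1 to 26.6 and 30.3 CPM (-1.53, SE 0.30, adjusted p = 0.00218). The rise of Ephb2 was lost with any bulk or emVE library left out, and that of Epha7 without bulk replicate 1 or emVE replicate 2. Plxnd1, the plexin of endothelial cells, rose from 13.1 and 21.3 to 111 and 120 CPM (2.75, SE 0.42), Plxna4 rose from 2.37 to 14.6 CPM and Plxna3 from 22.9 to 43.7 CPM. Nrp1 had 55.7 and 85.7 CPM in bulk gut tubes and was not called. Among the partners, 8 of 17 netrin receptors and related genes rose and 3 fell, led by Unc5c, from 2.48 ± 0.0256 to 25.1 ± 2.20 CPM, and Flrt2, a ligand of Unc5 receptors, from 7.24 ± 0.424 to 48.3 ± 0.680 CPM. Of this list 64.7% was called, against 38.6% of all genes tested. Endothelial markers moved with this comparison: their 8 genes summed to 12.6 to 25.3 CPM in emVE, with Emcn at 0, and to 409 to 418 CPM in bulk gut tubes, and all 8 rose. Neural crest markers, 5 genes of which 3 rose, summed to 10.7 to 10.8 CPM, with Tfap2b at 0, and to 97.4 to 112 CPM. Notochord genes, 3 of 6 lower and 1 higher, summed to 727 to 733 CPM in emVE and 156 to 266 CPM in bulk gut tubes. Visceral endoderm genes, 6 of 7 lower, summed to 12421 to 12988 and 381 to 932 CPM. Blood genes, 5 of 6 higher and 1 lower, summed to 10.1 to 10.9 CPM in emVE and 443 to 757 CPM in bulk gut tubes. Gut epithelium genes, 4 of 7 lower and none higher, summed to 3745 to 3948 and 1858 to 1864 CPM. Cardiac and splanchnic genes, 5 of 8 higher and none lower, summed to 220 to 249 and 300 to 418 CPM. The share of counts from mitochondrial genes was 4.77% to 5.48% in emVE and 1.63% to 2.56% in bulk gut tubes. The part of these differences in the result was not tested.

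Along the gut tube, 20 of the 60 guidance genes differed among the 4 sections, where 12.9% of all genes tested did. Of the 20, 7 had their highest mean in the anterior section, 5 in the anterior-midgut, 2 in the midgut-posterior and 6 in the posterior section. Ephrin ligands made up 5 of the 20, Eph receptors 4 and semaphorins 5, and none of the 3 slits passed. With each library left out in turn, 9 of the 20 stayed past the threshold: Efna1, Efna3, Efnb2, Epha2, Epha5, Epha7, Plxna4, Sema3d and Sema4d. The count was 11 without anterior replicate 1.

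Between the ends of the tube, 9 of the 60 genes were lower in the posterior than in the anterior section and 3 were higher, while 3.89% of all genes tested fell, 4.03% rose and 7.91% were called in all, and for 54.0% the libraries did not overlap. Efna3, Epha5, Efnb2, Plxna4 and Sema3d kept their calls with each library left out. Of the 12 calls, 7 were lost without posterior replicate 1 and 5 without each of the other libraries of the ends. Counting genes called anew, the fits called 5 without posterior replicate 1, 7 without anterior replicate 2, and 8 and 10 with the first anterior or the second posterior library left out.

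An ephrin-A ligand and an EphA receptor marked the posterior end. Epha5 had 4 and 6 counts in the anterior libraries, or 0.0442 and 0.0756 CPM, then 0.0520 and 0.130 CPM in the anterior-midgut, 0.391 and 1.38 CPM in the midgut-posterior and 23.1 and 12.9 CPM in the posterior section. The posterior libraries were above all others, and the log2 fold change against the anterior section was 8.21 (SE 0.81, adjusted p = 0.000157). Efna3 had 2.86 and 2.81, 2.85 and 2.09, 6.03 and 6.06, and then 29.9 and 17.2 CPM in the same order, a change of 3.05 between the ends (SE 0.29, adjusted p = 0.000140). Efna1 formed a trough in the anterior-midgut, at 26.2 and 24.6 CPM, between 65.1 and 42.8 CPM at the anterior and 104 and 79.5 CPM at the posterior end (adjusted p = 0.00448 over the 4 sections). Efna4, encoded near Efna1 and Efna3 on chromosome 3, was level along the tube, between 44.1 and 65.2 CPM. Epha2, a receptor of Efna1, was also lowest in the anterior-midgut: 39.2 and 36.5, 11.8 and 12.8, 20.5 and 18.9, then 58.5 and 43.1 CPM (adjusted p = 0.00269 over the sections). Sema4d dipped in both middle sections, at 17.0 and 15.5 and at 16.7 and 12.8 CPM, between 41.1 and 28.1 CPM at the anterior and 52.5 and 32.3 CPM at the posterior end (adjusted p = 0.00299). The posterior rise of Ephb4, from 131 to 180 CPM, had a log2 fold change of 0.45 and was lost with each of the 4 libraries left out, up to an adjusted p = 0.292, and with RLE scaling.

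At the anterior end Efnb2 and Sema3d stood out. Efnb2 had 321 and 250 CPM in the anterior section, 129 and 153 in the anterior-midgut, 113 and 117 in the midgut-posterior and 81.8 and 92.5 CPM in the posterior section. The anterior libraries were above all others, with a log2 fold change of -1.71 from the anterior to the posterior section (SE 0.19, adjusted p = 0.000339). Sema3d descended from 46.6 and 34.1 through means of 15.9 and 13.3 CPM in the middle sections to 2.19 and 2.82 CPM, a change of -4.01 (SE 0.47, adjusted p = 0.000428). Plxna4, a plexin that pairs with neuropilins, fell from 19.0 and 35.3 CPM in the anterior to 2.81 and 3.82 CPM in the posterior section (-3.04, SE 0.49, adjusted p = 0.00301). Ntn1 had 80.4 and 55.1 CPM in the anterior section and between 20.6 and 30.1 CPM in the other sections. Its fall towards the posterior section was -1.42 (SE 0.27, adjusted p = 0.00660), a call lost without anterior replicate 1 (adjusted p = 0.0681) or posterior replicate 1. Efna2, Efna5, Sema3a, Sema3f and Sema5a also fell, and each lost its call with a library left out, up to adjusted p-values between 0.127 and 0.262.

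Promoters are shown for 4 of the 5 genes that kept their calls between the ends, the posterior pair Efna3 and Epha5 and the anterior pair Efnb2 and Sema3d, to set their sequence beside the patterns. Each is the 250 bases before the first start listed in RefSeq for the gene, on its own strand, in build GRCm38.p6, with every CG in capitals.
Efna3, chr3:89322940-89323189, minus strand: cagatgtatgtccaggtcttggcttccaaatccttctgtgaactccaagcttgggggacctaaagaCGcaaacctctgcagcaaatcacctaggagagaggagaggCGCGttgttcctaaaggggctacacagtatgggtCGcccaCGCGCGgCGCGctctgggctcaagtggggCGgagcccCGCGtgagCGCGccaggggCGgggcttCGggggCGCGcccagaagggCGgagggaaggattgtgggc
Epha5, chr5:84417383-84417632, minus strand: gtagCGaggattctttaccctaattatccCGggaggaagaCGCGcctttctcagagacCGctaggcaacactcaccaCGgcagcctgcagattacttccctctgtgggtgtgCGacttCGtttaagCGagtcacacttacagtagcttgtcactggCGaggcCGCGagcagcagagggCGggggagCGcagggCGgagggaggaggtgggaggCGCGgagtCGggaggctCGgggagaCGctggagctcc
Efnb2, chr8:8661243-8661492, minus strand: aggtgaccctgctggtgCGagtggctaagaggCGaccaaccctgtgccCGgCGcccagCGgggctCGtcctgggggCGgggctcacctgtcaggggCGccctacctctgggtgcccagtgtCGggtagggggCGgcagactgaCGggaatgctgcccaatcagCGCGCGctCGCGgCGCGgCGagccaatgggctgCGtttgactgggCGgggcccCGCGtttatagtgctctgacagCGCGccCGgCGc
Sema3d, chr5:12382916-12383165, plus strand: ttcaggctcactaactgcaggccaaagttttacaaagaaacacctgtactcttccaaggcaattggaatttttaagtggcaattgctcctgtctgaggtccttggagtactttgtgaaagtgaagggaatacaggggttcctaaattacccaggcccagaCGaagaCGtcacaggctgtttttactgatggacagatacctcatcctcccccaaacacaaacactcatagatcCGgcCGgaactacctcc

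These windows held 19 CG pairs for Efna3, 20 for Epha5, 27 for Efnb2 and 4 for Sema3d, so Sema3d had the fewest. Over the 52 guidance genes with a promoter in the table, the median was 16 CG pairs and a GC content of 64.4%, against 6 and 52% over 27025 promoters. The letters TTTATG, a core bound by Cdx and posterior Hox proteins, were searched on both strands and occurred in 0 of the 52 windows and in 11.1% of all promoters. The letters TGTTTAC of Fox proteins occurred in 0 of 52 and 3.09% of all. The letters AGGTGT of T-box proteins occurred in 5 of 52 and 12% of all, and Sema3d was among the 5. The guidance windows were richer in GC than all promoters, and no share was compared at matched GC content. A lack of these letters particular to guidance genes therefore cannot be read from the shares. The motifs do not overlap each other.

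The plot of section profiles shows a selection of the genes called among the sections.

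**Figure D4:**
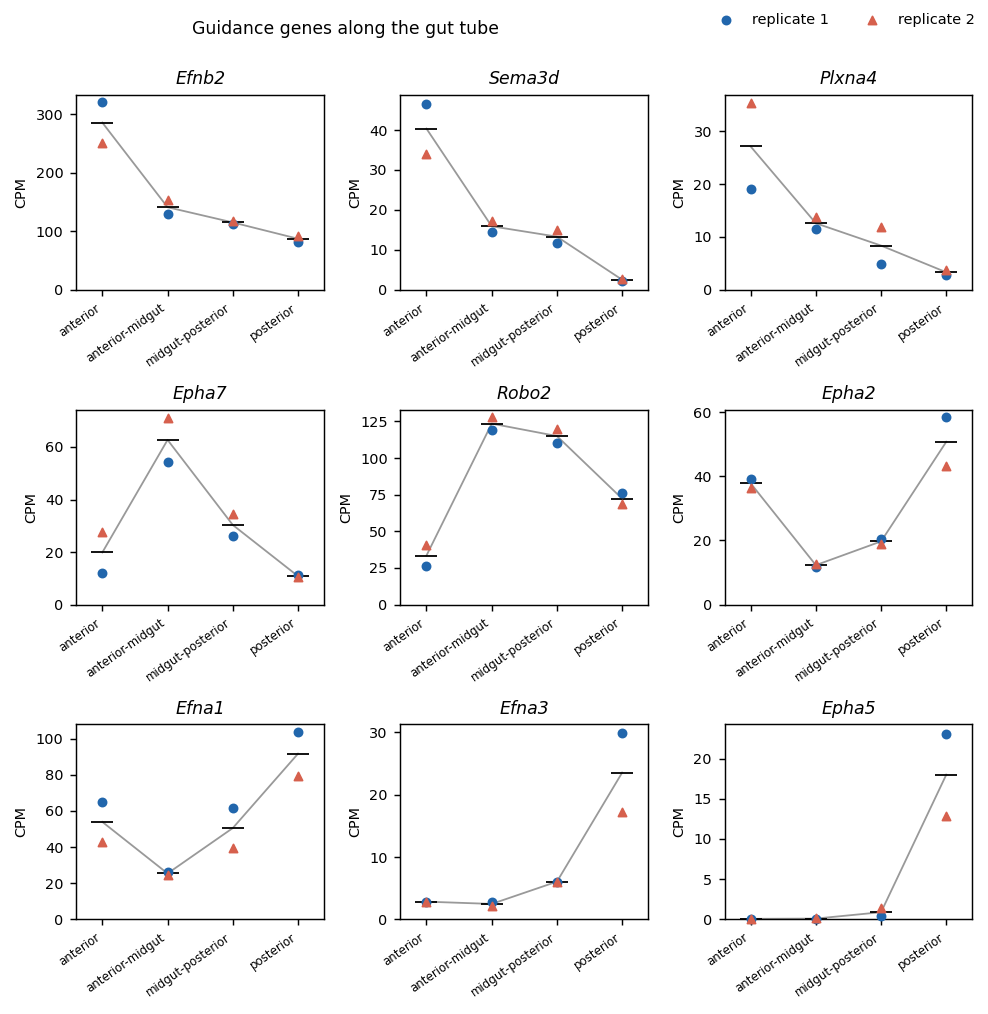
CPM (y axes, from 0) of 9 guidance genes in the 4 gut tube sections (x axes, anterior to posterior). Circles and triangles are the 2 libraries, dashes and the grey line their means. Efnb2, Sema3d and Plxna4 are highest in the anterior section, Epha7 and Robo2 in the anterior-midgut, and Efna1, Efna3, Epha2 and Epha5 in the posterior section.

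Relative to the anterior section, the neighbouring anterior-midgut had 3 guidance genes higher and 9 lower, against 3.42% and 2.17% of all genes tested, and 5.59% in all; libraries did not overlap for 55.5% of all genes. Robo2 rose from 26.5 and 40.4 to 119 and 128 CPM (log2 fold change 1.88, SE 0.32, adjusted p = 0.00617). It stayed at 110 and 120 CPM in the midgut-posterior section. Epha7, a receptor of A-class ephrins, rose from 12.0 and 27.7 to 54.2 and 71.2 CPM (1.66, SE 0.39), and Nrp1 from 29.3 and 47.0 to 108 and 96.6 CPM (1.42, SE 0.35). The 9 that fell were Efna1, Efnb2, Epha2, Ntn1, Robo3, Sema3f, Sema4d, Sema4f and Sema5b, with log2 fold changes from -1.02 (Efnb2) to -3.70 (Robo3). None of the 12 calls held with each library left out. All 12 were lost without anterior replicate 1, 11 without anterior-midgut replicate 1, 8 without anterior-midgut replicate 2 and 3 without anterior replicate 2; counting genes called anew, these fits called 0, 1, 6 and 9. Their directions did not change in any of these fits. Their libraries did not overlap between these sections, so leaving out a library could hardly turn a direction.

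Between the middle sections no guidance gene was called, with 0.497% of all genes tested past the threshold in edgeR, 0.173% higher and 0.323% lower. At an unadjusted p under 0.05 there were 10, against 1241 (7.17%) of all genes, and the smallest adjusted p was 0.0767, for Efna3 (2.47 to 6.05 CPM); DESeq2 called 3, and 443 of all genes. From the midgut-posterior to the posterior section, 4 rose and 1 fell, against 1.13% and 1.14% of all genes tested, and 2.26% in all, with no overlap of libraries for 48.8%. Efna3 (log2 fold change 1.96, SE 0.28), Epha2 (1.36, SE 0.29), Epha5 (4.34, SE 0.64) and Sema4d (1.52, SE 0.26) rose, and Sema3d fell (-2.40, SE 0.44). Each of the 5 lost its call without midgut-posterior replicate 1, where Epha5 had an adjusted p = 0.0550. The count was 1 without midgut-posterior replicate 2, 1 without posterior replicate 1, 12 without posterior replicate 2 and 0 with only the compared groups in the fit. The comparisons of sections share libraries with each other.

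Several ligands and their receptors fell on different sides of the threshold along the tube, a difference between genes that was not itself tested. Slit2 (82.8 and 62.4 CPM in the anterior section, 42.4 and 46.1 in the anterior-midgut, 49.6 and 65.7 in the midgut-posterior, 74.6 and 64.9 in the posterior) and Slit3 (31.6 to 48.4 CPM over all 8 section libraries) were not called. Their receptor Robo2 was, with its highest mean in the anterior-midgut section (adjusted p = 0.00749 over the sections, and 0.0701 without anterior replicate 1). Robo1 also had its highest mean in the anterior-midgut but its lowest in the posterior section, at 47.7 and 71.2, 87.2 and 92.1, 48.6 and 68.2, then 32.0 and 41.2 CPM, and was not called. Ephb2 and Ephb3, receptors of B-class ephrins, were not called in any comparison of sections; Ephb2 lay between 85.3 and 115 CPM in all 8 section libraries while Efnb2 changed. Efnb1 had its highest mean in the midgut-posterior section, at 87.7 and 106 CPM, against 41.0 and 51.7 CPM in the anterior one (adjusted p = 0.0373 over the sections, 0.131 in the least favourable left-out fit). Nrp1 also had its highest mean there, at 93.3 and 123 CPM (adjusted p = 0.0407 over the sections, and up to 0.236 with a library left out), while Nrp2, at 181 and 264 CPM there and 53.1 and 169 CPM in the posterior section, was not called. Plxnd1, from 108 to 219 CPM, and Sema3e, from 5.23 to 35.5 CPM over the section libraries, were not called. The other calls over the sections were Efna2, Ephb1 and Plxna2, each highest in the anterior-midgut section, Robo3, Sema3f and Sema4f, each highest in the anterior section, and Sema7a, highest in the posterior section. Each of these 7 lost its call with a library left out, at adjusted p-values up to 0.213 (Sema3f without anterior replicate 1) and at least 0.0530 (Sema7a without posterior replicate 1).

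Partner genes were measured along the tube as well. Unc5a fell from 9.10 ± 4.49 CPM in the anterior to 0.594 ± 0.0116 CPM in the posterior section (log2 fold change -3.93, SE 0.43, adjusted p = 0.000281). Unc5b had 161 ± 17.1, 82.7 ± 0.859, 114 ± 5.86 and 230 ± 20.6 CPM from anterior to posterior (adjusted p = 9.33e-05 over the sections). Neo1 was not called, and Dcc had section means of at most 0.287 CPM. Of the 17 genes of this list, 6 (35.3%) differed among the sections, and of 29 tested genes of guidance signal transduction, 5 (17.2%) did, against the 12.9% of all genes; the second share is close to that background. Dpysl3 was one of the 5, from 128 ± 6.57 in the anterior to 41.6 ± 2.11 CPM in the posterior section.

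Markers of other cell types along the tube were measured beside these results. The visceral endoderm genes, 7 of 7 called, summed to 20.3 to 48.0, 2194 to 6291, 2996 to 4716 and 97.2 to 1163 CPM from anterior to posterior. All 7 were higher in the anterior-midgut than in the anterior section, with a median log2 fold change of 7.16, in the same libraries where Robo2, Nrp1 and Epha7 were higher and Epha2 and Sema4d lower. None of 8 endothelial genes passed the sections test, and the endothelial sum ran from 424 to 469 CPM in the anterior and 508 to 823 CPM in the posterior section. The cardiac and splanchnic genes, 6 of 8 called, summed to 413 to 570, 944 to 1076, 320 to 464 and 88.7 to 317 CPM from anterior to posterior. The neural tube genes, 4 of 7 called, summed to 43.1 to 53.4 CPM in the anterior and 10.9 to 18.3 CPM in the posterior section, with Olig2 at 0 in both middle sections. The notochord genes, 3 of 6 called, summed to 102 to 179 and 370 to 762 CPM in these end sections. The part of these cells in the courses of the guidance genes was not tested.

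Dissociation was examined in whole gut tubes. No guidance gene was called between dissociated cells and bulk tissue in edgeR, where 0.00% of all genes tested were, and DESeq2 called no guidance gene either (304 of all genes). Without adjustment, 7 of the 60 had a p under 0.05, as did 16.2% of all genes. Sema5a, a transmembrane semaphorin, had the smallest of these, at 18.0 and 13.3 CPM in dissociated cells and 21.2 and 26.6 CPM in bulk tissue (adjusted p = 0.254). The dissociated libraries differed from each other: Plxnd1 had 160 and 66.9 CPM, Nrp1 97.2 and 46.8 CPM, Robo2 99.8 and 48.4 CPM and Nrp2 194 and 113 CPM, with bulk tissue between them for each of these 4 genes. Without dissociated replicate 1, so that replicate 2 alone was set against bulk tissue and assumed to vary like the other groups, 6 guidance genes and 4754 of all genes were called.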

How the data were processed

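The deposited files give, for each of 16 libraries, unnormalized whole-number counts by gene symbol, made by the authors. Per the submitters' processing notes, reads were aligned with STAR; its version, and likewise the genome build, annotation, counting program and use of strand, were not given in the sources used here. Repeated symbols (32) were summed, which took 26795 entries to 26761; 25562 matched mouse gene names.

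Groups were taken from the sample titles. The filter was filterByExpr, applied by group with a minimum count of 10 and total of 15; it left 17313 genes. All 16 libraries entered 1 fit in edgeR 4.0.16 (R 4.3.3) with a coefficient per group, TMM scaling and 8 residual degrees of freedom (prior 3.74; common dispersion 0.0592); the 4 sections were also compared with an F-test. Standard errors were the log2 fold change divided by the root of F. Alternatives were RLE scaling, no low-count filter, a replicate block, a fit of the compared groups alone, leaving out each library of the compared groups in turn, and DESeq2 1.42.0. Libraries of the other groups, which also enter the dispersion, were not left out. A group left with 1 library was assumed to vary like the others.

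On simulated counts of 16698 genes for exVE against emVE, the fit recovered 2.99%, 13.4% and 95.5% of genes changed 1.5-, 2- and 4-fold. For the posterior against the anterior section (16705 genes) the shares were 0%, 17.9% and 97%. The simulation changed only a small part of the genes. It gave every gene the same dispersion and all groups otherwise the same means. More genes were called in the data, which makes the adjusted threshold easier to pass. These shares are therefore not the shares of real changes that were found. Totals of at least 57061536 counts make counting error small for all but the lowest genes; floors cover counting error only.

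The genes and lists were chosen with earlier results of these data known. The rule for naming took, for each comparison, up to 8 called guidance genes a direction with separate libraries, a mean of at least 1 CPM and the smallest adjusted p, plus fixed sets of ligands and receptors; for partners, up to 4 genes a list with the smallest adjusted p, plus Dcc, Neo1 and Unc5b. Other guidance genes were named after their values were seen, to account for each. Lists were counted without a set test. Exon lengths came from GENCODE M21 and promoters from RefSeq (GRCm38.p6), both used without the files' own build; in GENCODE, 10 of the 60 share exon sequence with a gene on the other strand, at most 14.1% of the exon length (Efna3), and such reads cannot be told apart if strand was not used.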

Additional observations from a re-analysis of the deposited data

How the results depend on the processing

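Guidance genes called between groups kept their direction under every alternative run. Where libraries do not overlap between the groups, leaving out a library could hardly turn a direction. The test over the 4 sections has no direction. In exVE against emVE the 41 calls became 32 to 38 with a library left out and 40 to 42 otherwise. In bulk gut tube against emVE 28 became 16 to 22 with a library left out. Over the 4 sections 20 became 11 to 24 with a library left out and 33 with DESeq2. For posterior against anterior 12 became 5 to 10, and 21 with DESeq2; for anterior-midgut against anterior 12 became 0 to 9. Between the middle sections 0 became 1 with no filter on low counts, 1 with only the compared groups and 3 with DESeq2, and stayed 0 with a library left out. For posterior against midgut-posterior 5 became 0 to 12 with a library left out, 0 with only the compared groups and 13 with DESeq2; for dissociated against bulk tissue 0 became 0 to 6 with a library left out. The causes were not tested.

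Counts over all genes moved by over 1.5 times as well. DESeq2 called 3739 in place of 2236 over the sections, 2280 in place of 1370 between the ends, 1729 in place of 968 from anterior to anterior-midgut, 443 in place of 86 between the middle sections, 1299 in place of 392 for the last step and 304 in place of 0 after dissociation. Between the middle sections the count was 152 with no filter, 53 with the replicate block and 251 with only the compared groups; for the last step it was 17 with only the compared groups, and after dissociation 7 with no filter and 7 with the block. With a library left out it ran from 4242 upwards for bulk gut tube against emVE, 1244 for the sections, 615 between the ends, 201 for the first step, 6 to 17 between the middle sections, 65 to 797 for the last step and 0 to 4754 after dissociation.

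The labels give both libraries of a group a number but not what a shared number means. Deviations of same-numbered libraries had correlations across genes between -0.0899 and 0.186 over the compared groups. These correlations do not settle whether same-numbered libraries belong together. The main fit did not use the numbers as pairs, and the replicate block was an alternative. With the replicate block, guidance calls were 40 for exVE, 28 for bulk gut tube against emVE, 18 over the sections, 13 between the ends, 9 for the first step, 0 between the middle sections, 5 for the last step and 0 after dissociation. Calls lost with the block were Efnb3 for exVE, Efna2 and Nrp1 over the sections, and Nrp1, Sema3f and Sema5b for the first step.

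No median over all genes moved by more than 0.1 (log2) with RLE scaling.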

Other observations

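A list of VEGF, Notch and other vessel genes was measured beside the guidance genes. Apln, a vessel ligand, stood at 367 ± 64.6 CPM in exVE, 75.3 ± 13.4 CPM in emVE and 5.69 ± 0.315 CPM in bulk gut tubes (mean ± SD, n = 2); it rose in exVE and fell in the gut tube relative to emVE, by log2 fold changes of 2.29 and -3.73 in edgeR. Vegfc rose from 0.424 ± 0.104 CPM in emVE to 18.7 ± 2.08 CPM in bulk gut tubes. Of 13 genes on this list, 5 (38.5%) differed among the sections, against 12.9% of all genes tested. Hey1, a Notch target, had 80.1 ± 13.9, 29.3 ± 0.0274, 33.9 ± 4.59 and 87.3 ± 6.65 CPM from anterior to posterior (edgeR adjusted p = 0.000187), low in both middle sections, as Sema4d was. Nr2f2, a regulator of veins and mesenchyme, ran the other way, with 84.2 ± 0.695, 130 ± 12.7, 93.9 ± 21.5 and 19.8 ± 14.6 CPM (adjusted p = 0.00484).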
